A study of Mus musculus with 6 samples.

Results

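The synaptotagmin genes examined here are Syt1, Syt2, Syt3, Syt4, Syt5, Syt6, Syt7, Syt11 and Syt13, together with the synaptotagmin-like gene Sytl2. They were picked by gene symbol from the table of 24060 genes, in which all 10 were found and each had enough counts to be tested. The list was drawn up with the E18 and P5 values of these genes known, so their levels and fold changes are given as a description, without a p-value for any of them. RNA was sequenced from retinal ganglion cells (RGCs), the neurons whose axons form the optic nerve, in order to compare an age at which their axons grow readily with an age at which this ability has been lost. The cells came from C57BL/6 mice at embryonic day 18 (E18, 3 samples, replicates 1, 3 and 4) or postnatal day 5 (P5, 3 samples, replicates 6, 8 and 9). No mouse was treated and no transgene is named. At both ages, retinas were dissociated with papain, macrophages were removed on antibody-coated dishes, and RGCs were then held on dishes coated with antibodies to CD90 (Thy1). The number of mice per sample is not given, nor whether the samples came from separate litters, and the column name of E18 replicate 1 holds the further numbers 2 and 5. The p-values below therefore measure only the spread between these samples, which may be partly technical.

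Synaptotagmins are membrane proteins of vesicles with a pair of C2 domains, which in many members bind calcium and phospholipids and in others do not. When an action potential opens calcium channels, the calcium-binding members on synaptic vesicles act with the SNARE proteins, which pull vesicle and plasma membrane together, to trigger transmitter release. Other members serve secretory granules, lysosomes, endocytosis or the delivery of membrane to growing axons. Synaptotagmin-like proteins also carry C2 domains and dock vesicles that bear the small GTPase Rab27.

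The total per sample was 81213639 to 114512853 counts. No pair of samples of an age agreed within sampling noise (chi-square of 31.8 to 149.7 per degree of freedom over the genes tested). Levels are given in CPM (counts scaled to a common library size after TMM normalization), and a log2 fold change compares E18 with P5, positive where E18 was higher, with the standard error of the fit, which is written after ± wherever a log2 fold change carries one. All 12 RGC markers, among them Rbpms and Thy1, were above 1 CPM, and they summed to 5412 to 6437 CPM at E18 and 6394 to 7944 CPM at P5. Of these 12, 2 were higher and 5 lower at E18 by edgeR's quasi-likelihood test. The 9 amacrine markers summed to 638 to 958 CPM at E18 and 527 to 652 CPM at P5, with 5 of 9 higher at E18, most of each sum being Pax6. Several amacrine transcripts set E18 replicates 1 and 3 apart from E18 replicate 4. Tfap2b had 47.5, 119 and 1.62 CPM in E18 replicates 1, 3 and 4 and 1.015 to 1.55 CPM at P5, and Tfap2a, Slc32a1, Chat, Slc18a3 and Gad1 were likewise highest in replicate 3 and lowest within E18 in replicate 4, whereas Slc6a9 ranged only from 6.74 to 7.68 CPM. The 8 genes of dividing cells summed to 281, 111 and 66.4 CPM in E18 replicates 1, 3 and 4 and to 48.5 to 62.4 CPM at P5, with 7 of 8 higher at E18. The sums of 7 bipolar markers were 49.7 to 74.3 CPM at E18 and 69.9 to 97.4 CPM at P5, with Vsx1, Cabp5 and Grm6 below 1 CPM in every sample. Müller glia and astrocyte markers summed to 319 to 350.01 CPM and 238 to 278 CPM, with Gfap and Aqp4 below 1 CPM. Most of each sum was Glul. Slc1a3 (16.2, 2.80 and 0.475 CPM) and Sox9 (1.82, 0.580 and 0.188 CPM) fell from E18 replicate 1 over 3 to 4. Rlbp1 (2.72, 1.13 and 1.61 CPM) and Aldh1l1 (2.77, 2.85 and 3.10 CPM) did not run in that order. The sums for endothelial cells with pericytes were 71.2, 63.9 and 15.3 CPM in E18 replicates 1, 3 and 4 and 10.7 to 15.2 CPM at P5. Most of each E18 sum was Kdr (69.5, 62.9 and 14.1 CPM). Pecam1 (mean 0.686 CPM at E18 and 2.41 CPM at P5) and Rgs5 (0.112 and 2.33 CPM) went the other way. Cldn5, Cdh5 and Pdgfrb stayed below 1 CPM in every sample. The sums for oligodendrocytes were 71.6 to 74.2 CPM and 37.4 to 61.5 CPM. Photoreceptor and microglial markers summed to at most 9.40 and 2.13 CPM in any sample. In bulk RNA, fewer cells of a type and less RNA per cell cannot be told apart.

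RefSeq promoter windows of GRCm38.p6, from 250 bases before to 50 after a start site, were found for 5 of the 10 genes, Syt1, Syt2, Syt3, Syt6 and Syt11, with 9 windows among them. Those of Syt1, Syt2 and Syt3 are shown because Syt1 and Syt2 are close relatives with very different levels in RGCs, and because Syt3 had the largest fold change among the synaptotagmins of the list. Each runs 5′ to 3′ and stops where an annotated exon begins or at the start site, and capitals mark every CG dinucleotide. The window of Syt1 shown lies at chr10:109010983-109011225 on the minus strand, that of Syt2 at chr1:134709050-134709299 on the plus strand, at the second of the 2 start sites listed, and that of Syt3 at chr7:44383876-44384101 on the plus strand.
Syt1: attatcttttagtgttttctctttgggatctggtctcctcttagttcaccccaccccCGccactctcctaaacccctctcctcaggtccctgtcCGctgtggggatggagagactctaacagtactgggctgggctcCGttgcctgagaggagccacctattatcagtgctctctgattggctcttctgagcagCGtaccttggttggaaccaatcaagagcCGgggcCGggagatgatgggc
Syt2: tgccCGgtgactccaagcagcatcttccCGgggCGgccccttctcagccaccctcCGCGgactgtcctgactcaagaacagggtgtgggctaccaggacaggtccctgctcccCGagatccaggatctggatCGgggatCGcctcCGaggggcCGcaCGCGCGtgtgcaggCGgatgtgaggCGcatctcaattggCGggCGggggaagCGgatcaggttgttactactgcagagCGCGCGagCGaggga
Syt3: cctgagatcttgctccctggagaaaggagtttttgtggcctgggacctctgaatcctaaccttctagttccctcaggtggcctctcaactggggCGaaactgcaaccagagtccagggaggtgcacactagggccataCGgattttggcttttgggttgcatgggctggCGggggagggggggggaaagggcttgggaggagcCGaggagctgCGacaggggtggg

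The stretch of Syt2 held 22 CG dinucleotides in 250 bases, against 6 in 243 bases for Syt1 and 5 in 226 bases for Syt3. Over the whole windows of 300 bases, the counts were 28 for this Syt2 window, 34 for the other Syt2 window, 8 for the Syt1 window shown and 17 for Syt3, against a median of 7 over all 32851 windows. The Sp1 box (GGGCGG, either strand) occurred in both Syt2 windows, in this window of Syt1, in all 3 windows of Syt6 and in that of Syt11, and not in that of Syt3 or the other window of Syt1; 35.7% of all windows hold it. The Ets core (CCGGAAG, either strand), which is part of the site bound by Elk-1 and its relatives, occurred in the window of Syt11 alone among the 9, and in 8.86% of all windows. All 250 bases before the start site of that Syt11 window lie in annotated exons of Syt11 itself. The consensus of REST (RE1) and the cAMP response element (TGACGTCA) occurred in none of the 9, against 0.0639% and 1.79% of all windows. These matches describe the letters of the windows, and the counts per gene do not show which start site was used.

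Levels of different genes were compared as CPM per kilobase of annotated exon (RPKM, on the union of a gene's exons in GENCODE M21). Syt4, a vesicle protein whose first C2 domain does not bind calcium and which is known from dense-core vesicles, was the highest of the 10 at both ages, at 342 ± 19.3 RPKM at E18 and 328 ± 38.01 RPKM at P5 (SD, n = 3 each). At E18, Syt13 (92.4 ± 9.19 RPKM) and Syt1 (92.3 ± 11.8 RPKM) came next and overlapped, followed by Syt11 (68.3 ± 6.39 RPKM), Syt5 (36.9 ± 4.03 RPKM) and Syt7 (16.7 ± 1.02 RPKM), each below every sample of the gene before it. Syt6 (8.73 ± 3.47 RPKM) overlapped Syt3 (5.86 ± 1.11 RPKM), and Sytl2 (0.824 ± 0.0267 RPKM) overlapped Syt2 (0.615 ± 0.238 RPKM). At P5, Syt1 stood alone in position 2 (134 ± 30.6 RPKM), above every sample of Syt13 (73.04 ± 4.64 RPKM) and Syt11 (69.0 ± 8.48 RPKM), which overlapped each other. Below Syt5 (32.7 ± 1.99 RPKM), Syt7 (22.3 ± 1.25 RPKM) overlapped Syt3 (14.9 ± 6.01 RPKM), while Syt6 (7.93 ± 1.78 RPKM), Sytl2 (4.27 ± 0.630 RPKM) and Syt2 (0.971 ± 0.452 RPKM) were each separate from their neighbours. Parts of this order depend on the gene length used. At P5, Syt4 and Syt1 overlapped with the longest transcript as length (285 to 355 and 181 to 286 RPKM) and with the coding length (869 to 1083 and 689 to 1093 RPKM), although the mean of Syt4 stayed the higher. With the longest transcript, Sytl2 at P5 (11.97 to 15.9 RPKM) ranked above Syt6 (8.06 to 12.8 RPKM) and overlapped both Syt6 and Syt3 (11.9 to 25.6 RPKM).

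Summed over the 17 synaptotagmin genes of the table, the level was 662 to 708 RPKM in the E18 samples and 711 to 728 RPKM in the P5 samples, so the summed level of all P5 samples lay above that of all E18 samples by a small margin. Syt1, Syt4, Syt11 and Syt13 together made up 85.4% to 86.5% of the sum at E18 and 83.03% to 85.0% at P5. The share of Syt4 was 51.7%, 50.9% and 45.7% in E18 replicates 1, 3 and 4, and 47.5%, 49.9% and 39.6% in P5 replicates 6, 8 and 9, with overlap between the ages. The share of Syt1 was 11.996%, 13.4% and 14.6% at E18 and 18.295%, 14.7% and 23.02% at P5, so that E18 replicate 4 and P5 replicate 8 nearly met. The share of Syt13 went the other way, from 12.4% to 14.6% at E18 to 9.46% to 10.9% at P5. These shares depend on the gene length used. With the longest transcript in place of the exon union, the share of Syt1 was 20.3% at E18 and 27.4% at P5, and Syt1 then stood above Syt13 at E18 as well.

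**Figure D1:**
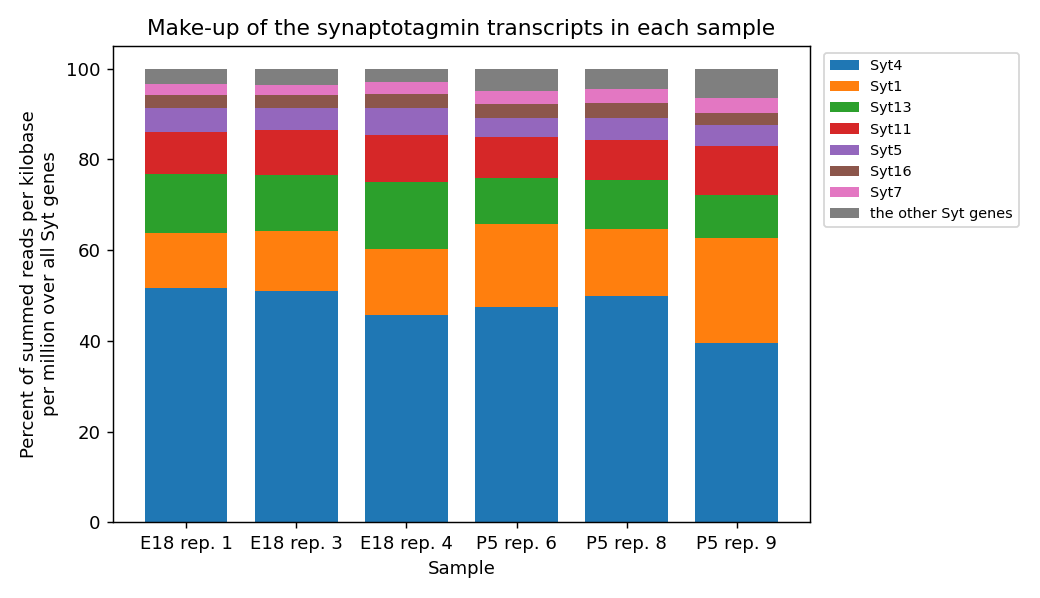
Share of each synaptotagmin gene in the summed RPKM of the 17 Syt genes (percent, y axis) in each of the 6 samples (x axis), with 10 low genes joined as the other Syt genes. Syt4 makes up 39.6% to 51.7% of every bar, and the Syt1 segment is widest in P5 replicate 9.

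Of the 10 genes, 5 passed edgeR's quasi-likelihood test at an adjusted p under 0.05, beside 43.4% of the 16449 genes tested. Of these, Syt13 was higher at E18, beside 20.8% of all genes tested, and Syt1, Syt3, Syt7 and Sytl2 were lower, beside 22.5%. The E18 and P5 samples did not overlap for 6 of the 10, the same 5 and Syt5, beside 56.1% of all genes tested. The median log2 fold change of the 10 was -0.22, and that of all genes tested 0.0047. Since the genes were listed with this comparison known, nothing is read from these counts. The fit was repeated with E18 replicate 4 alone, the E18 sample low in amacrine transcripts, against P5. Its spread had to be assumed to be that of the P5 samples, so only effect sizes are given here. The log2 fold change of Sytl2 was then -2.39. In that fit Syt1 (-0.38), Syt3 (-1.05), Syt7 (-0.31) and Syt13 (0.51) kept their sign. Syt2 (-1.31, against -0.66 with all samples) and Syt5 (0.35, against 0.17) kept theirs at a larger size. Syt6 (-0.58), Syt4 (-0.02) and Syt11 (0.11) changed sign.

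**Figure D2:**
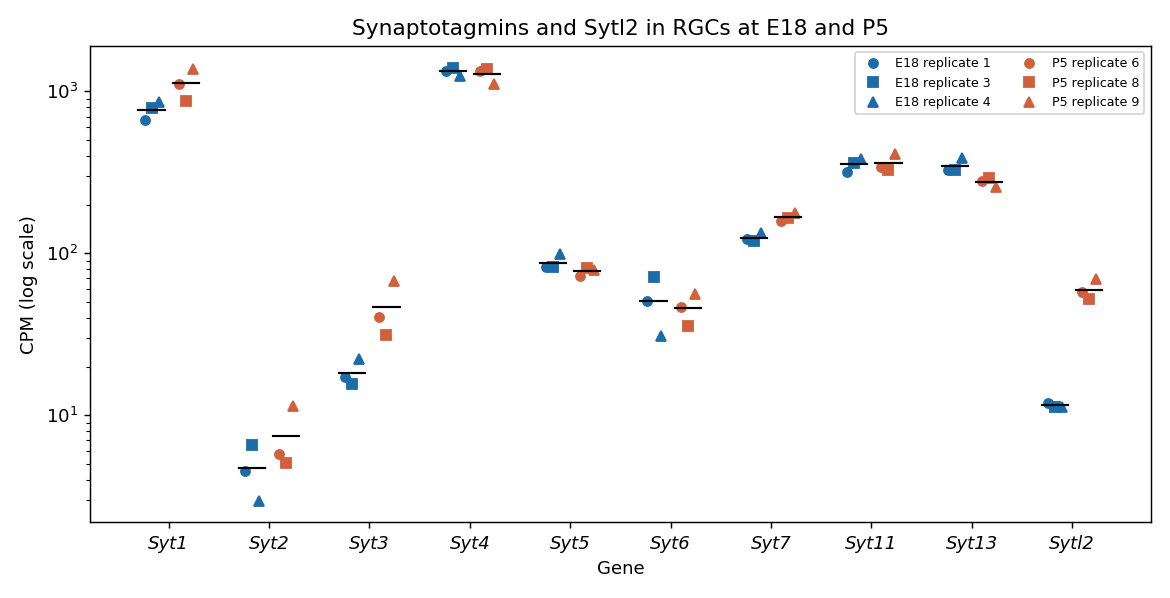
CPM (y axis, log scale) of the 10 genes (x axis) in 3 E18 samples (blue) and 3 P5 samples (orange). Symbols mark the replicates and black bars the mean of each age; the ages are farthest apart for Sytl2 and Syt3, and the Syt4 and Syt11 symbols overlap.

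Among the calcium sensors of transmitter release, Syt1, the sensor of fast synchronous release at most forebrain synapses, had 663, 789 and 857 CPM in E18 replicates 1, 3 and 4, and 1111, 870.4 and 1380.0 CPM in P5 replicates 6, 8 and 9. All P5 samples lay above all E18 samples, but P5 replicate 8 exceeded E18 replicate 4 only narrowly. The log2 fold change was -0.54 (standard error 0.166), a level 1.46-fold higher at P5. The gene (ENSMUSG00000035864.14, chromosome 10 of mm10, 108497650 to 109010982, minus strand) begins directly beside the stretch printed above. Without P5 replicate 9 the log2 fold change was -0.37, and Syt1 then no longer passed the threshold. The call was also lost without E18 replicate 1 (-0.44), E18 replicate 3 (-0.56) or P5 replicate 6 (-0.57).

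Syt2, the close relative of Syt1 that serves as the fast sensor at hindbrain and neuromuscular synapses, was the lowest of the 10 in CPM. It had 4.52, 6.59 and 2.97 CPM at E18 and 5.798, 5.07 and 11.4 CPM at P5. The ages overlapped, and P5 replicate 9 stood above the rest. The log2 fold change of -0.66 had a standard error of 0.363. Per kilobase of exon, Syt1 was 110 to 264 times the level of Syt2 in the E18 samples and 111 to 176 times in the P5 samples.

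Syt7, a high-affinity sensor known for asynchronous release, facilitation and lysosome exocytosis, had 122, 119 and 133 CPM at E18 and 158, 166 and 177 CPM at P5. The samples of each age lay close together (coefficients of variation of 6.13% and 5.62%), and all P5 samples were above all E18 samples. The log2 fold change was -0.42 (standard error 0.0890), and Syt7 stayed past the threshold in all 12 fits that changed the method or left out 1 sample. A long noncoding gene on the opposite strand, Gm26859, overlaps 5.13% of the Syt7 exons, and whether reads were counted by strand is not given.

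Syt3 and Syt6 belong to the synaptotagmins that form disulfide-linked dimers. Syt3, which is known from the endocytosis of AMPA receptors at postsynaptic membranes, had 17.1, 15.5 and 22.2 CPM at E18 and 40.4, 31.3 and 67.3 CPM at P5. All P5 samples were above all E18 samples, with P5 replicate 9 well above the other P5 samples. The log2 fold change was -1.34 (standard error 0.266), a level 2.54-fold higher at P5, and -0.97 without P5 replicate 9. Syt3 also stayed past the threshold in all 12 of those fits. The gene (ENSMUSG00000030731.13) lies on chromosome 7 of mm10, 44384102 to 44400187, plus strand. Syt6, best known from the acrosome reaction of sperm, had 50.6, 71.2 and 30.8 CPM at E18 and 46.7, 35.6 and 56.3 CPM at P5. Its E18 samples enclosed all P5 samples, and the log2 fold change of 0.14 was smaller than its standard error of 0.278. Atg4a-ps, on the opposite strand, overlaps 8.67% of the Syt6 exons.

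Syt4 and Syt11 share the substitution in the first C2 domain that removes calcium binding there. Syt4 had 1334, 1404 and 1254 CPM at E18 and 1346, 1381 and 1109 CPM at P5. The ages overlapped, with P5 replicate 9 the lowest sample, and the log2 fold change was 0.06 (standard error 0.103). The antisense gene Gm26658 overlaps 14.5% of the Syt4 exons. Syt11, a protein that restrains endocytosis and is a substrate of the ubiquitin ligase parkin, had 320 to 385 CPM at E18 and 325 to 409 CPM at P5. Its ages overlapped almost fully (log2 fold change -0.01, standard error 0.114). Neither gene passed the threshold in any fit, which does not show that the ages were equal.

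Syt13, which lacks the calcium-binding residues and is known from endocrine cells of the pancreas, had 326, 329 and 387 CPM at E18 and 278, 290.2 and 256 CPM at P5. All E18 samples were above all P5 samples. The log2 fold change was 0.34 (standard error 0.0994), a level 1.27-fold higher at E18. Without E18 replicate 4 it was 0.26, and Syt13 then no longer passed the threshold, as was also the case without P5 replicate 6 (0.33) or P5 replicate 9 (0.29). Syt5, a protein of synaptic and dense-core vesicles, had 82.3, 82.1 and 98.8 CPM at E18 and 72.5, 81.6 and 79.3 CPM at P5. The highest P5 sample and the lowest E18 sample differed by under 1 CPM, and the log2 fold change was 0.17 (standard error 0.104).

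Sytl2, also called Slp2, binds Rab27 and tethers the vesicles that carry it to the plasma membrane. It had 11.9, 11.3 and 11.3 CPM in E18 replicates 1, 3 and 4, and 57.3, 52.03 and 69.2 CPM in P5 replicates 6, 8 and 9. The E18 samples were nearly equal (coefficient of variation 3.24%), and every P5 sample was well above them. The log2 fold change was -2.37 (standard error 0.127), a level 5.18-fold higher at P5 and the widest gap of the 10 genes. It ranged from -2.48 to -2.25 over those 12 fits and was past the threshold in each. Sytl2 (ENSMUSG00000030616.15, chromosome 7 of mm10, 90302252 to 90410719, plus strand) has 19 annotated transcripts, with an exon union of 13941 bases and a longest transcript of 4348 bases. With the longest transcript as its length, the level was 2.64 RPKM at E18 (range 2.59 to 2.74) and 13.7 RPKM at P5 (range 11.97 to 15.9).

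**Figure D3:**
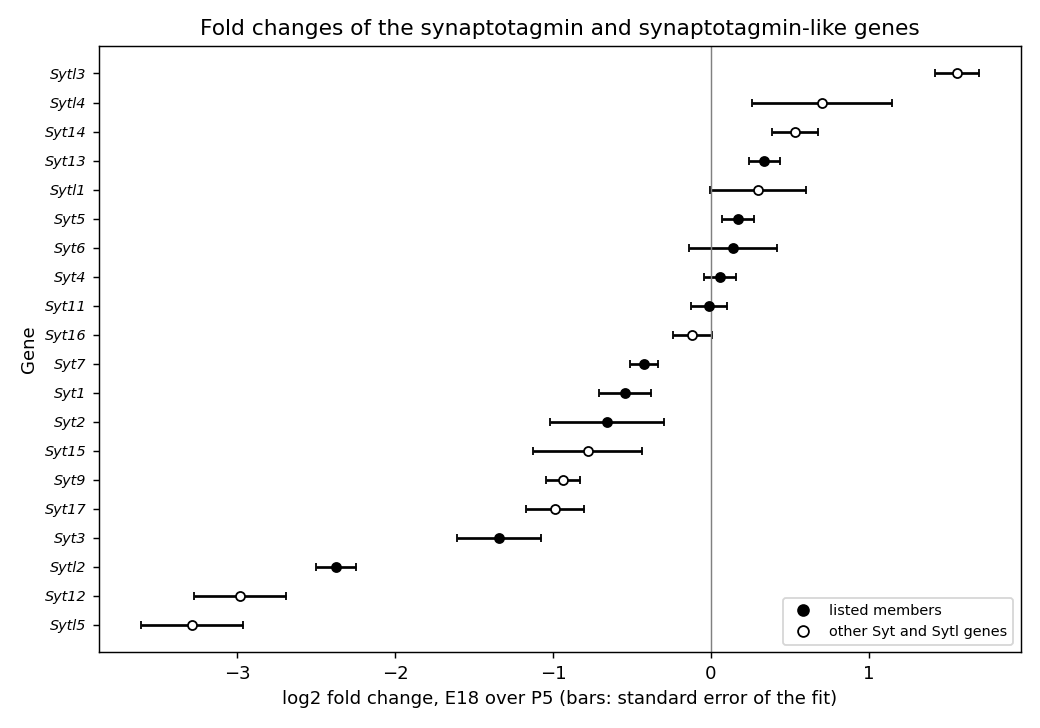
Log2 fold change of E18 over P5 (x axis, bars are standard errors of the fit) of the 20 synaptotagmin and synaptotagmin-like genes tested (y axis, sorted). Filled points are the listed genes and open points the other family genes; Sytl5, Syt12 and Sytl2 are farthest to the left and Sytl3 farthest to the right.

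Within P5, replicate 9 held the highest value of 7 of the 10 genes, Syt1, Syt2, Syt3, Syt6, Syt7, Syt11 and Sytl2, and the lowest of Syt4 and Syt13. Replicate 8 held the lowest value of 6. Syt2, Syt4 and Syt6 were highest in replicate 3 and lowest in replicate 4 within E18, the order of Tfap2b, and the part of amacrine transcripts in these values was not tested. Within E18, replicate 4 held the highest value of 6. The summed RGC markers ran in the same order, at 7944, 7135 and 6394 CPM in P5 replicates 9, 6 and 8 and at 6437, 5622 and 5412 CPM in E18 replicates 4, 3 and 1, and so did the CPM of Syt1 within each age. The part of these markers in the differences was not tested. Nefl was the largest part of the sum, with 2919, 2361 and 3462 CPM in P5 replicates 6, 8 and 9. Within P5, Nefl, Nefm, Nefh, Thy1 and Slc17a6 followed the order of the sum, and Sncg and Elavl4 were highest in replicate 6. Rbpms, Pou4f1 (536, 712 and 483 CPM in replicates 6, 8 and 9), Pou4f2, Pou4f3 and Isl1 were instead lowest in replicate 9. Divided by the RGC sum of the same sample, Syt1 came to 122 to 140.3 CPM per 1000 CPM of markers at E18 and 136 to 174 at P5, so that the ages overlapped. Syt7 overlapped as well, at 20.7 to 22.6 and 22.1 to 26.02. Syt3 stayed separate, at 2.76 to 3.44 and 4.89 to 8.47, and so did Sytl2, at 1.75 to 2.20 and 8.04 to 8.71. Syt13 was 58.6 to 60.2 at E18 and 32.2 to 45.4 at P5, Syt11 59.1 to 64.4 and 48.1 to 51.5, and Syt5 14.6 to 15.3 and 9.99 to 12.8, each without overlap. The marker sum is itself not constant, since 7 of its 12 genes passed the test between the ages. Its genes also differed in order within P5, so these ratios are not a measure per RGC.

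**Figure D4:**
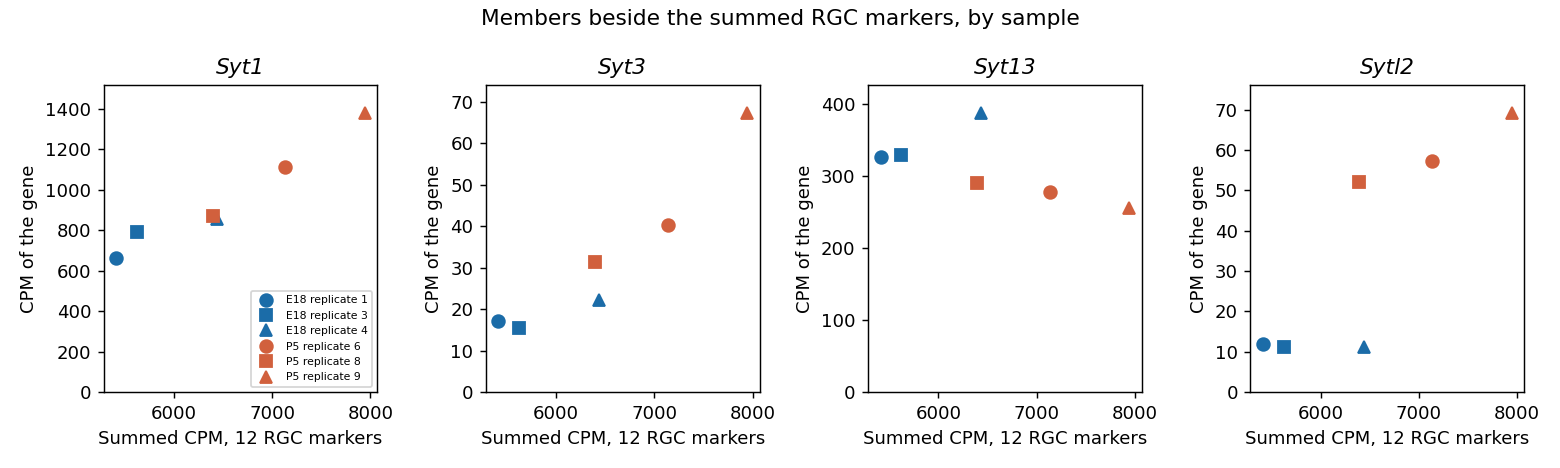
CPM of Syt1, Syt3, Syt13 and Sytl2 (y axes, from 0) against the summed CPM of the 12 RGC markers (x axes) in the 3 E18 (blue) and 3 P5 (orange) samples. The marker sums of E18 replicate 4 (6437 CPM) and P5 replicate 8 (6394 CPM) are nearly equal; at that sum Syt1 is nearly equal too, whereas Sytl2 is 11.3 and 52.03 CPM.

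The family genes outside the list, and all further lists below, were set aside with the same results known. Their adjusted p-values come from the fit over all genes tested and are a description, not independent support. Of 8 other synaptotagmins, 6 were tested, of which 3 were lower and 1 higher at E18 at an adjusted p under 0.05 by edgeR. This count and those of the lists that follow stand beside 22.5% lower, 20.8% higher and 43.4% in either direction among all genes tested. Syt12, which does not bind calcium, had 1.07, 0.838 and 0.828 CPM at E18 and 5.21, 6.25 and 10.2 CPM at P5 (log2 fold change -2.98 ± 0.290, edgeR adjusted p = 0.000271). All its P5 samples were above all E18 samples, and a noncoding gene on the opposite strand overlaps 17.2% of its exons. Syt9, a further fast sensor of release, rose from 20.3 ± 1.72 CPM at E18 to 38.9 ± 2.84 CPM at P5 (SD, n = 3 each; log2 fold change -0.94, edgeR adjusted p = 0.000518). Syt17 was lower at E18 (log2 fold change -0.99, edgeR adjusted p = 0.00367). Syt14 was higher (0.53, edgeR adjusted p = 0.0194), a call lost without E18 replicate 1, E18 replicate 3 or P5 replicate 6 (0.54, 0.50 and 0.53). Syt16, at 182 ± 16.3 CPM at E18 and 198 ± 28.4 CPM at P5 (SD, n = 3 each), did not pass (edgeR adjusted p = 0.467). Syt8 and Syt10 reached at most 0.132 CPM in any sample and were not tested.

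Among the 4 other synaptotagmin-like genes, 1 was higher and 1 lower at E18. Sytl5 (Slp5), also a Rab27 effector, had 0.518, 0.464 and 0.442 CPM at E18 and 4.90, 2.78 and 6.21 CPM at P5, with a log2 fold change of -3.28 ± 0.323 (edgeR adjusted p = 0.000280). Sytl3 (Slp3) went the other way, from 18.9, 20.0 and 19.9 CPM at E18 to 7.72, 6.46 and 5.79 CPM at P5, with a log2 fold change of 1.56 ± 0.137 (edgeR adjusted p = 0.000199). Neither gene overlapped between the ages. At E18 the CPM of Sytl3 was above that of Sytl2 in every sample, and at P5 below it in every sample; Sytl3 has an exon union of 5062 bases. Sytl1 and Sytl4 stayed below 1 CPM and did not pass (edgeR adjusted p = 0.451 and 0.226).

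In the list of Rab27 and its other effectors, 3 of the 4 genes tested were lower at E18 and none passed as higher. Unc13d leaned higher at E18 without passing (log2 fold change 0.62, edgeR adjusted p = 0.0791). This list does not hold Sytl3 (1.56) and Rph3a (0.49), which were higher at E18 and are given with other lists. Rab27a, the GTPase that Sytl2 binds, had 1.45, 1.73 and 1.65 CPM at E18 and 10.1, 8.54 and 12.1 CPM at P5 (log2 fold change -2.67 ± 0.189, edgeR adjusted p = 9.38e-05). Rab27b, the form abundant in neurons and secretory cells, had 21.2, 23.8 and 26.7 CPM at E18 and 64.7, 33.03 and 61.9 CPM at P5, where replicate 8 lay nearest to the E18 samples (-1.15 ± 0.233, edgeR adjusted p = 0.00499). Myrip, which links Rab27 to myosin, was lower by a smaller margin (-0.59, edgeR adjusted p = 0.0270), a call lost without any of the 3 E18 samples (-0.53, -0.60 and -0.63 without replicates 1, 3 and 4) or without P5 replicate 9 (-0.41).

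The SNARE proteins and the factors that act with synaptotagmin at the vesicle were examined as 4 further groups. Of 9 genes of the fusion machinery, 6 were lower at E18 and none higher, and their median log2 fold change was -0.46. The widest differences were those of Nsf, the ATPase that takes SNARE complexes apart (-1.54, edgeR adjusted p = 0.000723), Vamp1 (-1.32, edgeR adjusted p = 0.00547), Snap25 (-1.21, edgeR adjusted p = 0.000359) and Napb, a cofactor of Nsf (-1.06, edgeR adjusted p = 0.000494). Of 4 complexins, which bind assembled SNAREs, Cplx1 (-0.79, edgeR adjusted p = 0.00227) and the sparse Cplx4 (-1.29, edgeR adjusted p = 0.0302, at most 0.510 CPM) were lower at E18. The call of Cplx4 was lost without E18 replicate 3 (-1.25), E18 replicate 4 (-1.05) or P5 replicate 9 (-1.05). Cplx2, at 269 ± 19.1 CPM at E18 and 265 ± 58.6 CPM at P5 (SD, n = 3 each), did not pass (edgeR adjusted p = 0.921).

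The priming factors were split. Of 6 genes, Unc13a (0.33, edgeR adjusted p = 0.0408) and Unc13b (0.40, edgeR adjusted p = 0.00636) were higher at E18, and Unc13c was lower (-1.69, edgeR adjusted p = 0.000134). The call of Unc13a was lost in 5 of those 12 fits, those without E18 replicate 1 (0.36), E18 replicate 3 (0.35), E18 replicate 4 (0.29) or P5 replicate 6 (0.36) and that with a filter at a mean of 1 CPM (0.31). Among 5 vesicle partners of synaptotagmin, 3 were lower and 1 higher at E18. Sv2b, a glycoprotein that binds synaptotagmin, had 41.5, 32.7 and 35.0 CPM at E18 and 141, 95.4 and 173 CPM at P5 (log2 fold change -1.91 ± 0.203, edgeR adjusted p = 0.000366), and Syp (-1.08, edgeR adjusted p = 0.00138) and Sv2a (-0.80, edgeR adjusted p = 0.00223) were lower as well. Ston2, an endocytic adaptor that recruits synaptotagmin to clathrin-coated pits, was the exception. It had 55.5, 63.1 and 39.4 CPM at E18 and 10.9, 17.3 and 6.36 CPM at P5, a log2 difference of 2.20 ± 0.331 (edgeR adjusted p = 0.00144).

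**Figure D5:**
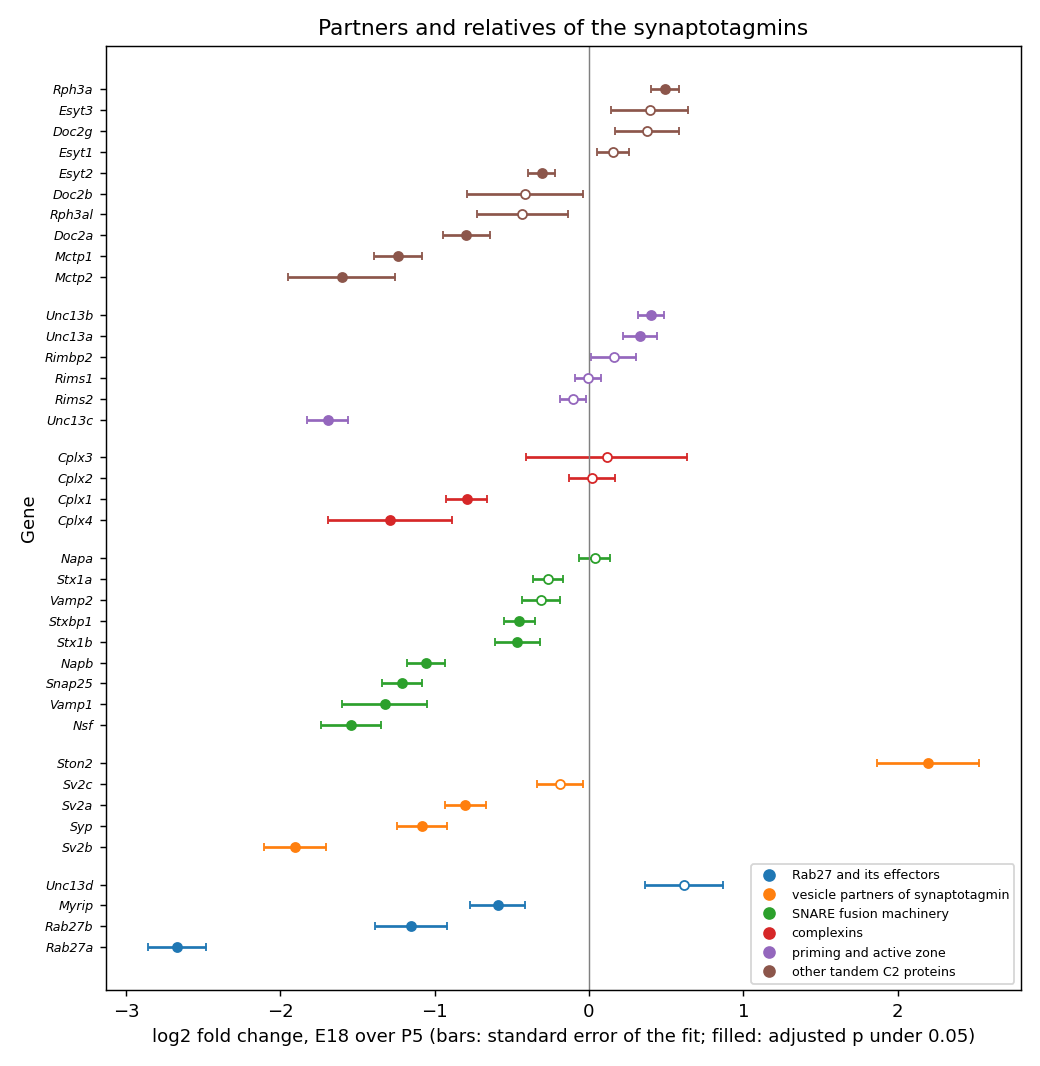
Log2 fold change of E18 over P5 (x axis, bars are standard errors of the fit) of the tested genes in 6 groups of partners and relatives (y axis, sorted within groups). Filled points passed an adjusted p under 0.05 in edgeR; Rab27a is farthest to the left and Ston2 farthest to the right.

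Over all 51 genes listed outside the members, 48 were tested, 23 were lower and 6 higher at E18, with a median log2 fold change of -0.42, beside 22.5% lower, 20.8% higher and a median of 0.0047 over all genes tested. With E18 replicate 4 alone against P5, the log2 fold changes of Rab27a, Sytl5, Syt12, Sytl3 and Ston2 were -2.63, -3.37, -3.11, 1.59 and 1.79. Likeness to a member was examined among 9684 genes averaging 10 CPM or more, with the members and all listed genes left out. Genes with the most similar profile over the 6 samples were found by the root mean square difference in log2 CPM after centring each gene. For Syt1 they were Nebl (0.0476), Galnt9 (0.0609) and 9630033F20Rik (0.0657). For Sytl2 they were Add3 (0.0570), Slc4a10 (0.0698) and Ppp1r16b (0.101), whose log2 fold changes were -2.37, -2.37 and -2.24. The nearest to Syt2 were Ptprg (0.228), Fndc3b (0.257) and Amigo2 (0.299), at wider distances, and those nearest to Syt4 were Gtf2b (0.0327), Pkn2 (0.0398) and Casp8ap2 (0.0400).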

How the data were processed

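RNA of immunopanned RGCs was sequenced from 3 E18 and 3 P5 samples, grouped by their labels. The authors prepared libraries with ribosomal RNA depletion (the labels name polyA RNA), sequenced 100-base paired-end reads, aligned them with STAR to the build mm10, and used HT-seq to count reads per RefSeq gene. They deposited raw counts per gene, which were used here. The deposited signal (normalized counts), and the authors' log2 fold changes, p-values and rank score, were not used. Counts on genes came to 81213639 to 114512853 per sample, so that the spread between samples rather than depth limits most genes.

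With edgeR 4.0.16 (R 4.3.3), low genes were removed by its expression filter, which left 16449 of 24060. TMM factors and a quasi-likelihood fit followed, and p-values were adjusted by Benjamini and Hochberg, with 0.05 as the threshold. The standard error is that of the fit, taken from the fold change and its F statistic. The script was tested on simulated data. Gene lengths are from GENCODE M21 (GRCm38, the build of mm10) matched by symbol, and promoter windows from RefSeq. Whether counting used the strand, and what was done with multiply mapped reads, is not given in the sources used here.

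The members and all lists were chosen with earlier results of these data known. Named are the members, the listed genes with up to 4 of the widest changes past the threshold in each list, the 3 genes most like each of Syt1, Syt2, Syt4 and Sytl2, and, chosen after their values were seen, Syt16, Cplx2, Sytl1, Sytl4, Syt8, Syt10, Unc13d and genes that overlap a member. Alternatives were DESeq2 1.42.0, edgeR's exact test, upper-quartile and RLE normalization, other filters, other gene lengths, another log scale for likeness and the omission of each sample. The ratio to the RGC markers, DESeq2 on the genes of the edgeR fit and the fit of E18 replicate 4 alone against P5 were added after the data were seen. Protein sequences were not used here.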

Additional observations from a re-analysis of the deposited data

How the results depend on the processing

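No paired analysis was possible because the E18 and P5 samples share no replicate number. Against 7135 genes called of 16449, edgeR's exact test called 7398 and DESeq2 7634 of the same genes, the latter chosen after seeing the data; with its own filter, DESeq2 called 7652 of 21649. With 1 sample omitted, the count over all genes ran from 4575 of 16775 (without E18 replicate 3) to 8796 of 16761 (without P5 replicate 8), with fewer samples in each fit. The count of the 10 listed genes past the threshold ran from 3 (without P5 replicate 6 or P5 replicate 9, when neither Syt1 nor Syt13 passed) to 5, and was 5 under each other normalization, filter and test. Over all genes tested, 5589 of 16716 passed without P5 replicate 6 and 5384 of 16683 without P5 replicate 9. With E18 replicate 4 alone against P5, chosen after seeing the data, 1633 genes passed, 1 of the 10 (Sytl2) and 12 of the other listed genes; that fit has 2 samples fewer, and the part of sample number was not told apart from that of the samples left out. The fit of E18 replicate 4 alone tested 17227 genes. Its spread was assumed to be that of the P5 samples, so nothing is read from its counts past the threshold. For the 48 other listed genes tested, the count past the threshold ran from 23 (without E18 replicate 3) to 31 (without P5 replicate 8) with 1 sample omitted. These were also the fits with the lowest and highest counts over all genes. Syt4, Syt6 and Syt11 changed sign in 1, 2 and 2 of the 12 alternatives that kept at least 2 samples per age, and none of these genes was past the threshold in any. The share of Syt1 in the summed synaptotagmin level was 20.3% at E18 and 27.4% at P5 with the longest transcript as length, and 24.1% and 32.0% with the coding length, against 13.3% and 18.7% with the exon union, since its exon union (8338 bases) is longer than its longest transcript (4820 bases). With log2(CPM + 1), Sorcs2 replaced Amigo2 beside Syt2, and Mbtps2 replaced Casp8ap2 beside Syt4.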

Other observations

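Of 10 other genes with C2 domains in tandem, 4 were lower and 1 was higher at E18 by edgeR's quasi-likelihood test and 5 did not pass, beside 43.4% of all genes tested that passed in either direction. Mctp1, a C2 protein of the endoplasmic reticulum, had 14.2, 12.8 and 15.6 CPM at E18 and 32.0, 27.8 and 40.4 CPM at P5 (log2 fold change -1.24 ± 0.154, edgeR adjusted p = 0.000691). Its relative Mctp2 was lower at E18 too (-1.60, edgeR adjusted p = 0.00696), at no more than 0.812 CPM. Doc2a, a high-affinity calcium sensor of spontaneous and asynchronous release, had 20.6 ± 1.53 CPM at E18 and 35.7 ± 7.10 CPM at P5 (SD, n = 3 each; -0.79, edgeR adjusted p = 0.00382). Rph3a, which binds Rab3 and Rab27 on synaptic vesicles, went the other way, with 207, 175 and 193 CPM at E18 and 132, 135 and 141 CPM at P5 (0.49, edgeR adjusted p = 0.00347). Esyt2, an extended synaptotagmin of membrane contact sites, was lower at E18 by a small margin (-0.31, edgeR adjusted p = 0.0217), a call lost without E18 replicate 1 (-0.27) or E18 replicate 3 (-0.29). Esyt1, Esyt3, Doc2b, Doc2g and Rph3al did not pass. With E18 replicate 4 alone against P5, the log2 fold changes of Mctp1, Mctp2, Doc2a, Rph3a and Esyt2 were -1.09, -1.65, -0.67, 0.51 and -0.21.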
